A study of Mus musculus with 12 samples.

Results

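The mitochondrially encoded transcripts of the mouse were taken as every row of the deposited count table whose gene symbol starts with mt-. This rule found 37 of the 55335 rows: 13 protein-coding genes, 2 ribosomal RNAs and 22 transfer RNAs, all on the mitochondrial chromosome. The table covered 12 bulk RNA-seq libraries, 3 in each of 4 groups, from male littermates whose thyrotropin receptor gene Tshr was flanked by loxP sites on both alleles (Tshr f/f) and which either lacked Cre or carried a Cre driven by Lyz2, a gene of myeloid cells (Tshr MKO). All 6 libraries of bone marrow-derived macrophages (BMDM) were made from marrow cells of mice aged 6 weeks, grown for 7 days in DMEM with 10% FBS, 1% penicillin and streptomycin and 10 ng/mL M-CSF, the growth factor of macrophages, and then exposed to 1 ng/mL thyrotropin (TSH) for 24 h, so that no library without TSH was analysed here. All 6 liver libraries came from mice that were put on a high-fat diet at 6 weeks of age, stayed on it for 9 weeks, to an age of 15 weeks, and were then fasted (8 h) and given 1.5 U/kg insulin for 5 min. The liver samples were whole tissue, in which a Lyz2-driven Cre acts in the myeloid cells and not in the hepatocytes.

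Each library held between 28962878 and 40954211 counts, of which the mitochondrial rows took 435308 to 840445 in BMDM and 1697300 to 3295514 in liver. Hepatocyte markers summed to between 93792 and 122172 CPM (the count divided by the library total, scaled to 1e6) in the livers and to at most 254 CPM in BMDM, and macrophage markers to between 18836 and 35603 CPM in BMDM and to at most 560 CPM in the livers, so both labelled tissues carried their own markers. The genotype could not be checked in these counts, because Tshr (ENSMUSG00000020963) had 0 counts in 10 libraries and at most 5 in any. The study's own listing of receptor values puts the liver libraries labelled Tshr MKO here under the heading of the opposite genotype and the reverse, so the livers are called the livers labelled MKO or labelled f/f throughout, and every liver direction given below follows the labels. The methods give n = 3 mice per group for both tissues, but the labels tie no library to an animal, so the p-values measure the spread between these libraries.

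The mammalian mitochondrial genome is a small circle that is copied into long RNAs from both strands, and these are cut into messenger, ribosomal and transfer RNAs, mostly at the transfer RNAs that lie between the genes. Its messenger RNAs encode core subunits of the respiratory chain and of ATP synthase, which work together with subunits encoded in the nucleus. All proteins that transcribe, cut, polyadenylate and degrade these RNAs are made from nuclear genes, and hepatocytes are known for their many mitochondria.

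Of the 13 messenger RNAs, 7 encode subunits of complex I, the NADH dehydrogenase (mt-Nd1 to mt-Nd6 and mt-Nd4l). Complex III, the cytochrome bc1 complex, takes 1 (mt-Cytb), complex IV, the cytochrome c oxidase, takes 3 (mt-Co1 to mt-Co3), and complex V, the ATP synthase, takes 2 (mt-Atp6 and mt-Atp8). The plus strand of the annotated chromosome carries 28 of the 37 genes. The minus strand carries 9, namely mt-Nd6 and 8 transfer RNAs. Neighbouring genes overlap each other at 9 places, where a base belongs to more than 1 row, and others abut with no gap. The longest overlap, 43 bases, lies between mt-Atp8 and mt-Atp6 on the same strand, and mt-Nd5 and mt-Nd6 share 14 bases on opposite strands. The sequences below, from the GRCm38 (mm10) genome with GENCODE M21 genes and written 5′ to 3′ along the coding strand of the named gene, show 4 places on which the counts turn. In the first, capitals mark the 43 bases that mt-Atp8 and mt-Atp6 share.
mt-Atp8 into mt-Atp6 (chrM:7907-7989, plus strand): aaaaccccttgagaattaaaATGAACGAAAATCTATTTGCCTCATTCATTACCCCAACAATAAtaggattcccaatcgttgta
In the next pair capitals mark the 14 bases that the end of mt-Nd5 and the end of mt-Nd6 share, read on either strand.
end of mt-Nd5 (chrM:13526-13565, plus strand): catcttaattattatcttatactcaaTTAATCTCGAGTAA
end of mt-Nd6 (chrM:13552-13591, minus strand): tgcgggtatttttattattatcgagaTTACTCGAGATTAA
The next shows mt-Te, the glutamate transfer RNA, in capitals, running straight into the start of mt-Nd6 on the minus strand.
mt-Te into mt-Nd6 (chrM:14041-14139, minus strand): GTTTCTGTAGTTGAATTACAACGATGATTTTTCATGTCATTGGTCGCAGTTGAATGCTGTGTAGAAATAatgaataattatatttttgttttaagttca
The last shows mt-Tl1, a leucine transfer RNA, in capitals, between the end of mt-Rnr2 and the start of mt-Nd1.
mt-Rnr2 into mt-Tl1 and mt-Nd1 (chrM:2646-2780, plus strand): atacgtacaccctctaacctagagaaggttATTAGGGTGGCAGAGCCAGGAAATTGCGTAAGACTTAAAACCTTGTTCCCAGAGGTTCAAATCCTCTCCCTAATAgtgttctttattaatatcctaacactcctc
The rows are therefore neighbours with no spacer, and a count on a transfer RNA row does not tell a mature transfer RNA from an uncut precursor. Whether counting used strand is not given, so a count on a minus-strand row may also hold reads of the opposite strand.

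For 7 of the messenger RNAs, a near-identical stretch of mitochondrial DNA is annotated on the minus strand of chromosome 1 (chr1:24611535-24616197) as a pseudogene, and each of these had its own row of counts. The rows of Gm28661 (ENSMUSG00000102070), Gm28437 (ENSMUSG00000101111), Gm10222 (ENSMUSG00000067736) and Gm10925 (ENSMUSG00000100862) are identical over 681, 783, 294 and 678 bases to mt-Co2, mt-Co3, mt-Nd4l and mt-Atp6, respectively, and Gm28438 (ENSMUSG00000101939) differs from mt-Nd3 at 1 of 345 bases. That base is the substitution T3C, counted from 1 at the first base of mt-Nd3, and it is in capitals in the first pair of sequences. The second pair holds the start of mt-Co2 and of its copy, with no difference.
mt-Nd3 (chrM:9459-9518, plus strand): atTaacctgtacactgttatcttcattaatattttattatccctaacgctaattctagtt
Gm28438 (chr1:24613060-24613119, minus strand): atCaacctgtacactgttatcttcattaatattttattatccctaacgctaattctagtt
mt-Co2 (chrM:7013-7072, plus strand): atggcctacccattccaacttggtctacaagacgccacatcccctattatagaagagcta
Gm28661 (chr1:24615506-24615565, minus strand): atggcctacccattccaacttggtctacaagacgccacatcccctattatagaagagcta
In every library the 4 identical rows held nearly the counts of their mitochondrial partner. The copy's count was 99.1% to 99.7% of that of mt-Co2, 99.4% to 99.8% of that of mt-Co3 and 99.3% to 99.9% of that of mt-Nd4l over the 12 libraries. For mt-Nd3 it was 97.5% to 98.7%, and for mt-Atp6 it was 104% to 106%, so that the copy exceeded the gene. The 2 shorter copies held less: Gm28439 (ENSMUSG00000100131), the first 876 bases of mt-Nd4, held 34.2% to 40.4% of its counts, and Gm29216 (ENSMUSG00000101249), which matches the last 483 bases of mt-Co1 with 1 mismatch, held 11.6% to 15.6%. The levels of these 7 messenger RNAs are therefore uncertain as deposited. mt-Nd1, mt-Nd2, mt-Nd5, mt-Nd6, mt-Cytb, mt-Atp8 and both ribosomal RNAs had no such row. The last 43 bases of mt-Atp8 are, however, also the first of mt-Atp6, which Gm10925 copies. The transfer RNA rows are shorter than the 100 bases that the search for copies required, so it could not find copies of them. The lack of an annotated row thus does not show that a member shares no reads with chromosome 1.

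**Figure D1:**
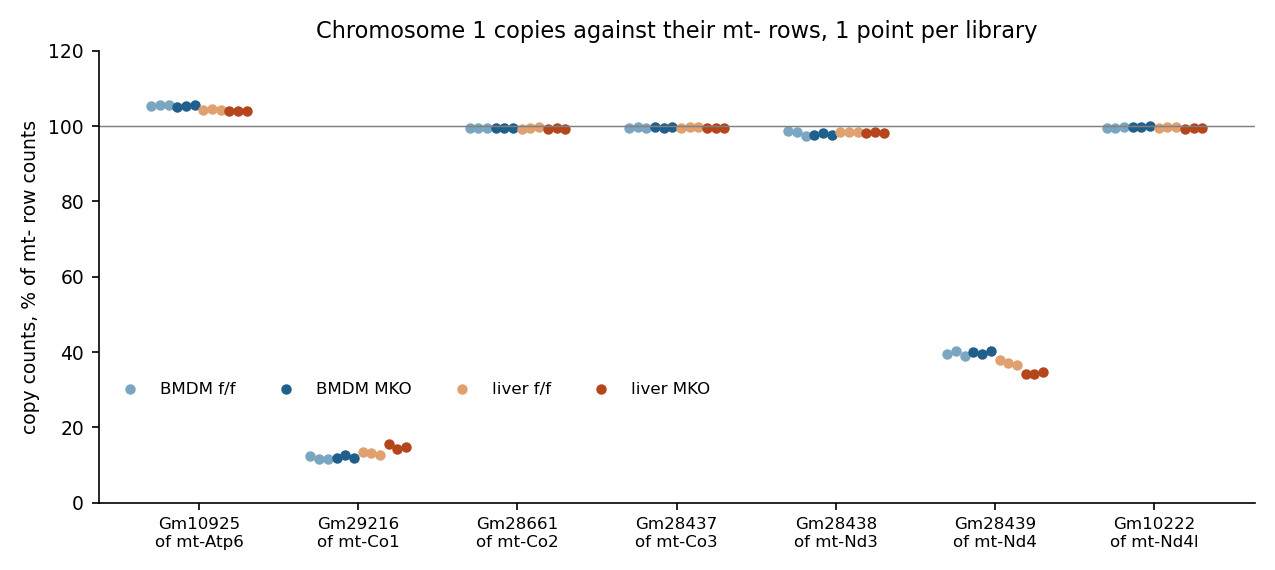
Counts of 7 nuclear pseudogene rows on chromosome 1 (x axis) as a percent of the counts of the matching mitochondrial row (y axis, from 0), 1 point per library, in 4 colours for the 4 groups. 5 copies sit between 97.5% and 106% in all 12 libraries, and the shorter copies of mt-Nd4 and mt-Co1 sit between 34.2% and 40.4% and between 11.6% and 15.6%.

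The first comparison was of how much of each library the mitochondrial transcripts took up. They held 1.55%, 1.96% and 1.23% of the counts in BMDM f/f replicates 1 to 3, and 1.74%, 1.75% and 2.05% in BMDM MKO. In the livers labelled f/f they held 5.55%, 6.80% and 5.84%, and in the livers labelled MKO 7.75%, 8.15% and 7.72%. Every liver lay above every BMDM library, every liver labelled MKO lay above every liver labelled f/f, and the BMDM groups overlapped. The share was 4.07 times as high in liver (6.97% ± 1.08, SD, n = 6) as in BMDM (1.71% ± 0.294, SD, n = 6; exact permutation test, two-sided, p = 0.00216, the smallest that 6 against 6 can give). In liver it was 1.81 percentage points higher in the samples labelled MKO (7.87% ± 0.241, SD, n = 3, against 6.07% ± 0.651, SD, n = 3), a ratio of 1.30, and the exact two-sided permutation test gave p = 0.1, the smallest that 3 against 3 allows. In BMDM the means were 1.85% ± 0.178 in MKO and 1.58% ± 0.362 in f/f (SD, n = 3 each), with an exact permutation p of 0.4. In bulk tissue, a different mix of cells and a different amount of mitochondrial RNA per cell cannot be told apart. The submitters' identifiers of the livers start with A or B, whose meaning is not given: within A the 2 livers labelled f/f held 5.55% and 6.80% and the 1 labelled MKO 7.72%, and within B the 1 labelled f/f held 5.84% and the 2 labelled MKO 7.75% and 8.15%. The livers labelled MKO were thus the higher within each letter, with too few libraries for a test.

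Adding the 7 chromosome 1 copies to the mitochondrial rows raised the shares to between 1.60% and 2.64% in BMDM and to between 6.98% and 10.4% in liver. How multiply mapped reads were counted is not given, so these sums may hold a shared read on both rows. The ratio of the livers labelled MKO to those labelled f/f was then 1.32, and the exact permutation p was again 0.1. Without the 10 other genes with the most counts over all libraries in the total, the ratio was 1.30 in liver and 1.20 in BMDM.

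**Figure D2:**
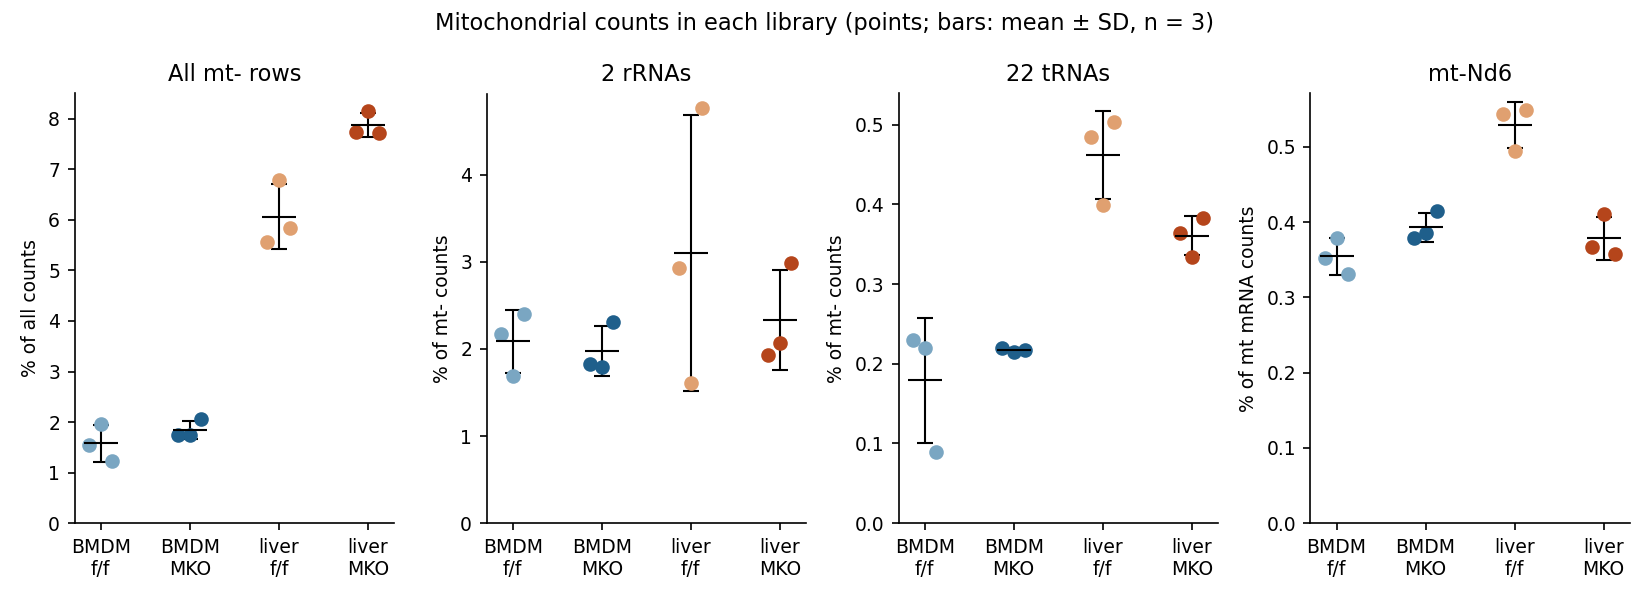
Percent of all counts on mitochondrial rows, percent of mitochondrial counts on the ribosomal and on the transfer RNAs, and percent of mitochondrial messenger counts on mt-Nd6, in 4 panels by group, with 1 point per library and a bar at the group mean with its SD (n = 3). The 3 livers labelled MKO lie between 7.72% and 8.15% of counts and the 3 labelled f/f between 5.55% and 6.80%, while the order of these groups is reversed for transfer RNA and mt-Nd6.

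Almost all mitochondrial counts fell on messenger RNAs. The 2 ribosomal RNAs, mt-Rnr1 (the small-subunit RNA, 12S) and mt-Rnr2 (the large-subunit RNA, 16S), are the most abundant RNAs of a mitochondrion, yet together they held only 1.61% to 4.77% of the mitochondrial counts. Their share was 2.17%, 1.69% and 2.40% in BMDM f/f and 1.83%, 1.80% and 2.31% in BMDM MKO. It was 2.92%, 1.61% and 4.77% in the livers labelled f/f and 1.93%, 2.07% and 2.99% in those labelled MKO. The groups overlapped in both tissues, and the liver f/f libraries spread the most. Exact two-sided permutation tests gave p = 0.9 for genotype in BMDM, p = 0.7 for genotype in liver and p = 0.177 between the tissues. Whether the libraries were made from polyadenylated RNA or after removal of ribosomal RNA is not given in the sources used here, so these values say how much ribosomal RNA was sequenced and not how much the cells held. The transfer RNAs held 0.0891% to 0.230% of the mitochondrial counts in BMDM and 0.334% to 0.503% in liver, 2.07 times as much on average in liver (exact permutation p = 0.00216).

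Per length the order of the transcripts differed between liver and BMDM. On the scale of CPM of the library total divided by gene length in kilobases, without any other scaling, mt-Co1, the catalytic subunit of cytochrome c oxidase, stood first in all 12 libraries. In BMDM it reached a level of 4403 ± 651 CPM per kb (SD, n = 6). Below it came mt-Co2 at 1863 ± 324, mt-Atp8 at 1667 ± 287 and mt-Atp6 at 1651 ± 261 CPM per kb. mt-Co2 lay above mt-Atp8 in each of the 6 BMDM libraries, whereas mt-Atp8 and mt-Atp6, which share 1 messenger, changed places in 1 of 6. A middle group held mt-Co3, mt-Nd1 and mt-Cytb at 1379 ± 227, 1328 ± 272 and 1285 ± 238 CPM per kb, whose order was not the same in all 6 libraries. It was followed by mt-Nd5 (772 ± 182), mt-Nd4 (721 ± 154), mt-Nd2 (662 ± 145) and mt-Nd4l (649 ± 132 CPM per kb), of which the last 2 did not keep their order in all 6. The lowest levels per length were those of mt-Rnr2 (155 ± 22.7), mt-Nd3 (132 ± 27.1), mt-Nd6 (122 ± 29.0) and mt-Rnr1 (105 ± 31.7 CPM per kb), and these overlapped in rank.

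In liver mt-Co1 reached 12660 ± 2698 CPM per kb (SD, n = 6) and was followed in all 6 libraries by mt-Cytb, the only mitochondrially encoded subunit of complex III, at 8364 ± 1535. mt-Atp6 (6778 ± 1269) and mt-Nd2 (6544 ± 707 CPM per kb) came next and changed places in 2 of 6 libraries. Then came mt-Co2, mt-Co3, mt-Atp8 and mt-Nd1, between 5104 and 5504 CPM per kb and without a fixed order. mt-Nd4 (4414 ± 775) lay below all of these in each library, and mt-Nd4l (3150 ± 433) and mt-Nd5 (2980 ± 281 CPM per kb) below mt-Nd4. mt-Rnr2, mt-Nd3, mt-Rnr1 and mt-Nd6 were again the lowest, between 577 and 740 CPM per kb. These ranks depend on the chromosome 1 rows, on which a read shared with the gene may have been counted as well. With the counts of all 7 copies added, mt-Co1 stood at 14455, mt-Atp6 at 13833, mt-Co2 at 10975 and mt-Co3 at 10914 CPM per kb in liver, on average above mt-Cytb. mt-Co1 was then the highest in 4 of the 6 livers and mt-Atp6 in the other 2, f/f replicates 2 and 3. In BMDM mt-Co1 remained the highest in all 6 libraries, at 4933 CPM per kb, with mt-Co2 at 3716 and mt-Atp6 at 3393.

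Every mitochondrial transcript that could be tested was more abundant in liver than in BMDM. The libraries were compared on CPM after TMM scaling, which sets the libraries so that most genes keep their level, and a gene was called at an adjusted p under 0.05 in edgeR's quasi-likelihood test. All 31 tested members were called higher in liver (13 messenger RNAs, both ribosomal RNAs and 16 transfer RNAs), and in none did the 2 tissues overlap, against a background of 77.8% of all 17246 tested genes called in either direction, 40.5% called higher and 32.4% higher without overlap. The median log2 difference of the 13 messenger RNAs was 2.91 and that of all genes 0.04. The TMM factors were 0.667 to 0.768 in the livers and 1.00 to 1.54 in BMDM. This scaling raised every difference in favour of liver. As a share of library totals the messengers were 4.03 times as high in liver, below the 7.52 times of mt-Atp6, the messenger at the median. The 2 kinds of sample differ in cell type, culture, diet and treatment, which cannot be told apart, and the values are read below for how the members differed from each other.

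Among the complex I messengers the difference was greatest for mt-Nd2. Its level was 422 to 622 CPM in BMDM (median 483) and 8307 to 10402 CPM in liver (median 8974), a log2 difference of 4.21 ± 0.13 (SE, adjusted p = 7.25e-10). For mt-Nd4, which like mt-Nd2 encodes a proton-pumping membrane subunit, the level was 635 to 904 CPM in BMDM and 6555 to 9570 CPM in liver, a log2 difference of 3.51 ± 0.13. The other complex I messengers lay below these, with log2 differences of 3.31 for mt-Nd3, 3.18 for mt-Nd4l, 3.15 for mt-Nd6, 2.86 for mt-Nd5 and 2.84 for mt-Nd1. mt-Cytb was at 974 to 1248 CPM in BMDM (median 1062) and 9563 to 15326 CPM in liver (median 13417), a log2 difference of 3.59 ± 0.12 (adjusted p = 1.52e-09). The complex IV messengers differed least: mt-Co1 was at 4450 to 5936 CPM in BMDM (median 4830) and 19586 to 31767 CPM in liver (median 27331), a log2 difference of 2.39 ± 0.12 (adjusted p = 2.05e-08). mt-Co2 had a log2 difference of 2.44 and mt-Co3 of 2.86, and the ATP synthase messengers mt-Atp6 and mt-Atp8 had 2.91 and 2.59. Both ribosomal RNAs were higher in liver, by 3.60 ± 0.29 (mt-Rnr1) and 3.13 ± 0.25 (mt-Rnr2) on the log2 scale.

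The make-up of the mitochondrial messenger RNA itself therefore differed between the tissues. mt-Co1 made up 39.5% to 43.8% of the mitochondrial messenger counts in BMDM and 27.0% to 30.6% in liver. mt-Nd2 made up 3.51% to 4.26% in BMDM and 8.96% to 11.6% in liver, and mt-Cytb 8.19% to 9.39% and 13.2% to 14.9%. Of the 13 messengers, 5 had a higher share of the messenger counts in liver without overlap and 3 a lower share, where 10.2% and 72.6% of all genes tested did on that scale, and the ranges of mt-Nd1, mt-Atp6, mt-Co3, mt-Nd5 and mt-Nd6 overlapped. To test this, the fit was repeated with each library's size set to its summed counts on the 13 messenger RNAs, so that a difference is relative to mitochondrial messenger RNA. On this scale the median of all genes was −2.86, 93.2% of all tested genes were called, 12.7% higher and 80.5% lower in liver, and 19 of the 31 members were called. mt-Nd2 was higher in liver by 1.32 ± 0.13, mt-Cytb by 0.69 ± 0.13, mt-Nd4 by 0.61 ± 0.12 and mt-Nd3 by 0.40 ± 0.09 on the log2 scale. mt-Co1 fell by 0.51 ± 0.14, mt-Co2 fell by 0.46 ± 0.12 and mt-Atp8 fell by 0.30. mt-Nd4l and mt-Nd6 were higher by 0.28 and 0.26, mt-Rnr1 was higher by 0.74 ± 0.26 (adjusted p = 0.0179), and mt-Nd1, mt-Nd5, mt-Atp6, mt-Co3 and mt-Rnr2 did not pass the test.

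**Figure D3:**
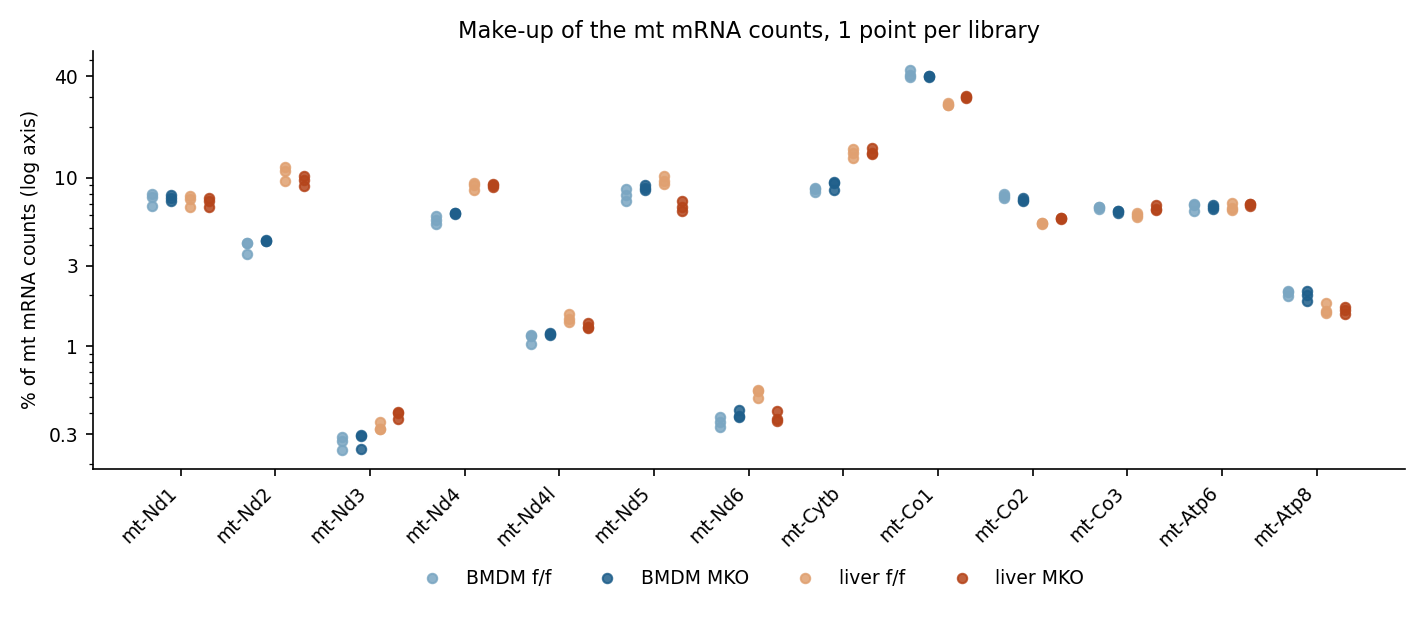
Percent of the mitochondrial messenger RNA counts (y axis, log scale) on each of the 13 messengers (x axis, grouped by complex), 1 point per library, in 4 colours for the 4 groups. mt-Co1 lies between 39.5% and 43.8% in BMDM and between 27.0% and 30.6% in liver, and mt-Nd2 between 3.51% and 4.26% and between 8.96% and 11.6%.

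The second question was whether the mitochondrial transcripts differed with the genotype label in liver. In the edgeR fit of the 6 livers no gene of 15062 passed the adjusted threshold (background percent called 0, lowest adjusted p 0.0634), and so 0 of the 31 tested members were called. At an unadjusted p under 0.05, 8 of the 13 messenger RNAs were higher in the livers labelled MKO and none lower, where 5.27% of all genes were higher and 5.18% lower. 10 of the 13 messengers were higher without any overlap between the groups, where 9.60% of all genes were. The median log2 difference was 0.38 over the 13 messengers and −0.01 over all genes, and 11 of 13 had a value above 0, as did 49.1% of all genes. DESeq2, run on the same counts, called 269 genes (1.79% of those tested, 0.830% higher), 5 of them members.

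All 3 complex IV messengers were higher in value in the livers labelled MKO, without overlap. mt-Co1 was at 16316, 17646 and 14407 CPM in the livers labelled f/f and at 22791, 22903 and 23011 CPM in those labelled MKO, a log2 difference of 0.51 ± 0.14 (SE, adjusted p = 0.334 in edgeR). mt-Co2 was at 3207, 3441 and 2868 CPM and at 4231, 4398 and 4395 CPM, a difference of 0.45 ± 0.12 (adjusted p = 0.336 in edgeR). mt-Co3 was at 3614, 3919 and 3138 CPM and at 5098, 4903 and 4995 CPM, a difference of 0.49 ± 0.13 (adjusted p = 0.334 in edgeR). For each of the 3 the livers labelled MKO lay above all those labelled f/f, of which replicate 3 was the lowest and replicate 2 the highest. DESeq2 called all 3, with adjusted p of 0.00227, 0.00582 and 0.00739 in the same order.

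Among the complex I messengers mt-Nd3 had the greatest difference. It was at 214, 205 and 172 CPM in the livers labelled f/f and at 304, 282 and 306 CPM in those labelled MKO, a log2 difference of 0.59 ± 0.12 (adjusted p = 0.315 in edgeR, 0.000865 in DESeq2). The row shares its sequence with Gm28438, so its level rests on how shared reads were assigned. mt-Nd4 was at 5117, 5902 and 4822 CPM against 6602, 6900 and 7054 CPM (log2 difference 0.38 ± 0.13), and mt-Nd1 at 4510, 4255 and 4171 CPM against 4969, 5787 and 5584 CPM (0.34 ± 0.12), both without overlap. mt-Nd2 was also higher without overlap, by 0.21 ± 0.13 (adjusted p = 0.594 in edgeR), and mt-Nd4l had a difference of 0.21 with overlapping groups. The remaining complex I messengers, mt-Nd5 and mt-Nd6, went the other way. mt-Nd5 was at 6193, 5877 and 5131 CPM in the livers labelled f/f and 4991, 5599 and 4845 CPM in those labelled MKO, a log2 difference of −0.16 ± 0.14 (adjusted p = 0.736 in edgeR). mt-Nd6 was at 328, 315 and 293 CPM and at 274, 315 and 273 CPM, a difference of −0.12 ± 0.11 (adjusted p = 0.751 in edgeR). The groups overlapped for both.

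mt-Cytb was at 8453, 9385 and 7034 CPM in the livers labelled f/f and at 11136, 10728 and 10555 CPM in those labelled MKO, a log2 difference of 0.38 ± 0.15 (adjusted p = 0.439 in edgeR). The ATP synthase messengers mt-Atp6 and mt-Atp8 had differences of 0.41 ± 0.14 and 0.33 ± 0.14, with mt-Atp6 at 3861, 4488 and 3523 CPM against 5206, 5178 and 5366 CPM. These 3 messengers too were higher without overlap. The ribosomal RNAs were not: mt-Rnr1 was at 740, 374 and 987 CPM in the livers labelled f/f and at 539, 534 and 815 CPM in those labelled MKO, a log2 difference of −0.15 ± 0.36. mt-Rnr2 was at 1084, 671 and 1698 CPM against 936, 1088 and 1549 CPM, a difference of 0.05 ± 0.35. Replicate 3 of either label held the most of both ribosomal RNAs, and the spread within the labels exceeded the difference between them.

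**Figure D4:**
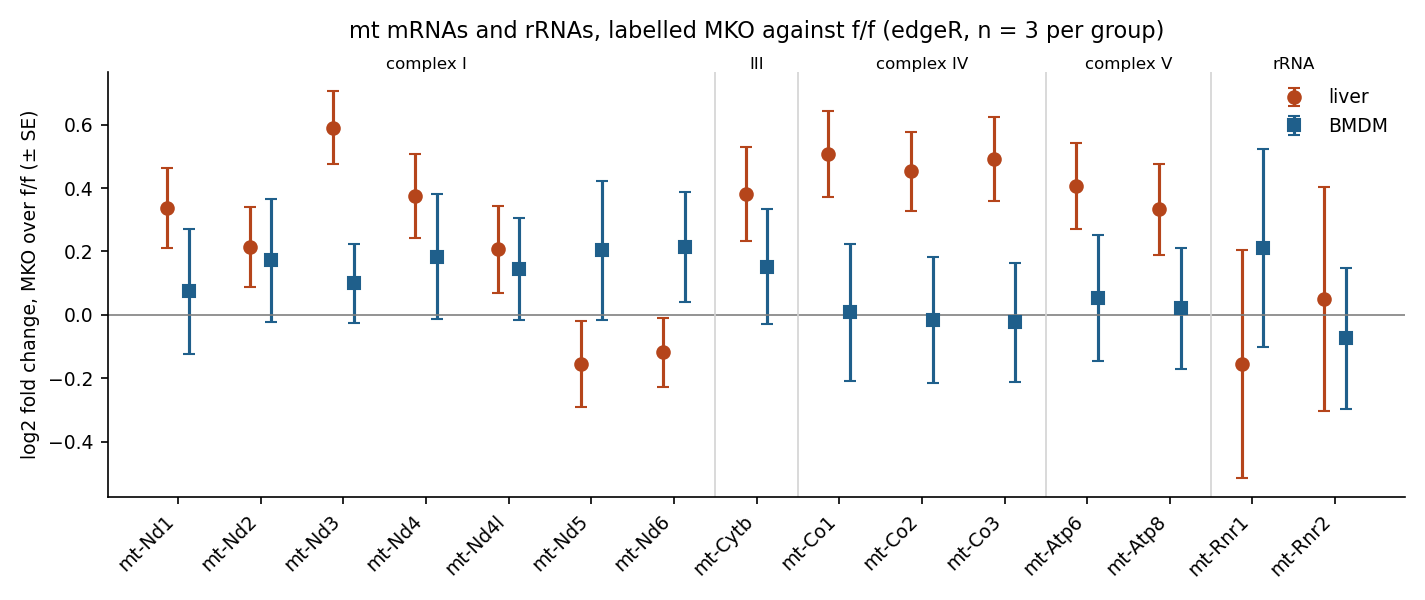
Log2 difference of Tshr MKO against Tshr f/f (y axis, edgeR fit with TMM scaling, point and SE from 3 libraries a group) for the 13 messenger RNAs and the 2 ribosomal RNAs (x axis, grouped by complex), with circles for liver and squares for BMDM. In liver 11 of 13 messenger RNAs lie above 0 with a median of 0.38, mt-Nd5 and mt-Nd6 lying below, and in BMDM 11 of 13 lie above 0 with a median of 0.10.

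Relative to mitochondrial messenger RNA, the livers labelled MKO held less mt-Nd5, mt-Nd6 and mt-Nd4l in value and more mt-Co1, mt-Co2, mt-Co3 and mt-Nd3. mt-Nd5 made up 10.3%, 9.23% and 9.62% of the messenger counts in the livers labelled f/f and 6.70%, 7.31% and 6.33% in those labelled MKO. mt-Nd6, the only messenger annotated on the minus strand, made up 0.544%, 0.495% and 0.549% against 0.367%, 0.411% and 0.357%. As it is not given whether counting used strand, this does not show a difference of minus-strand RNA. mt-Co1 made up 27.1%, 27.7% and 27.0% against 30.6%, 29.9% and 30.1%. mt-Nd4l made up 1.44%, 1.56% and 1.39% against 1.28%, 1.30% and 1.37%. In all, 4 of the 13 shares were higher and 3 lower in the livers labelled MKO without overlap, where 1.00% of all genes tested were higher and 37.7% lower relative to mitochondrial messenger RNA, so the count of lower shares was below that of genes in general on this scale. The exact permutation test of the mt-Nd6 share gave p = 0.1 (two-sided), the smallest 3 against 3 allows. In the fit scaled to mitochondrial messenger RNA, where the median of all genes was −0.37, 0 of 31 members were called and 0.00664% of all genes were. The members nearest to the threshold were mt-Te (−0.57 ± 0.13, adjusted p = 0.0522 in edgeR), mt-Tl1 (−0.85 ± 0.20, 0.0557), mt-Nd6 (−0.48 ± 0.13, 0.0587), mt-Nd5 (−0.52 ± 0.14, 0.0626) and mt-Ts1 (0.37 ± 0.11, 0.0705). Without f/f replicate 2, the f/f liver with the highest mitochondrial share, 8 members were called, all but mt-Ts1 of them lower, where 26.9% of all genes were called and 26.5% lower.

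In BMDM no mitochondrial transcript differed between the genotypes beyond the spread of the edgeR fit. In that fit 0 of 15372 genes were called (percent called 0, lowest adjusted p 0.218), although 7.73% were higher and 10.2% lower at an unadjusted p under 0.05. On simulated counts it recovered 0% of genes changed 2-fold, so the lack of calls does not speak against differences as small as those in liver. None of the 25 tested members reached an unadjusted p under 0.05, and DESeq2, which called 1223 genes (7.96%), called 0 members. mt-Co1 was at 6239, 6883 and 7143 CPM in f/f and at 6346, 6067 and 7958 CPM in MKO, a log2 difference of 0.01 ± 0.22. mt-Nd3 was at 41.7, 49.8 and 39.4 CPM and at 46.7, 45.1 and 48.4 CPM, a difference of 0.10 ± 0.13. The 13 messengers ranged from −0.02 (mt-Co3) to 0.21 (mt-Nd6) with a median of 0.10 (0.01 over all genes), 11 of them above 0, as were 50.8% of all genes. The groups overlapped for all 13, where 14.8% of all genes were higher and 14.0% lower without overlap. MKO replicate 3 held the highest level of the 6 libraries for most messengers. f/f replicate 3 stood apart in its scaling, with a TMM factor of 0.738 where the other 5 lay between 0.993 and 1.11, and it held the lowest mitochondrial share of the 12 libraries. mt-Rnr1 and mt-Rnr2 had differences of 0.21 ± 0.31 and −0.07 ± 0.22. Relative to mitochondrial messenger RNA 0 of 25 members were called (percent called 0), and the messengers ranged from −0.08 to 0.15. As shares of the messenger counts, mt-Nd2, mt-Nd4 and mt-Nd4l were higher in MKO without overlap and mt-Co2 and mt-Co3 lower, 3 and 2 of 13, where 9.48% and 13.2% of all genes were on that scale. The share of mt-Nd6 was 0.393% ± 0.0193 in MKO and 0.354% ± 0.0242 in f/f (SD, n = 3 each, exact permutation p = 0.2). The ratio of mt-Rnr1 to mt-Rnr2 counts was 0.442 ± 0.0652 in MKO and 0.369 ± 0.0361 in f/f. The exact permutation p was 0.1, the smallest that 3 against 3 allows. The groups narrowly did not overlap, with 0.397 the lowest in MKO and 0.394 the highest in f/f. In liver the ratio went the other way, at 0.531 ± 0.0425 in the livers labelled MKO and 0.607 ± 0.0663 in those labelled f/f. There the groups overlapped (exact permutation p = 0.2).

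The difference between the 2 genotype effects, liver minus BMDM, was tested in a fit of all 12 libraries. It called 1 of 17246 genes (0.00580%) and 0 of 31 members, while DESeq2 called 774 (4.49%) and 0 members. The median over the 13 messengers was 0.26. mt-Nd3 (0.49 ± 0.18) and mt-Co3 (0.52 ± 0.22) alone were under an unadjusted p of 0.05 in edgeR's test, where 7.42% of all genes were higher. The greater differences in liver were thus not shown to be particular to liver.

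The transfer RNAs were counted very unevenly. 6 of the 22 rows held at most 8 counts in any library, and mt-Ts2, a serine transfer RNA, held 1 count in all 12 together. 8 rows held 1000 counts or more in total, and 5 of these lie on the minus strand. mt-Te held 39.8% of all transfer RNA counts, mt-Ts1, the serine transfer RNA that overlaps the end of mt-Co1 by 3 bases on the opposite strand, 24.9%, and mt-Tl1 11.4%. The balance differed by tissue: mt-Te took 44.0% of the transfer RNA counts in liver and 9.87% in BMDM, whereas mt-Ts1 took 22.1% in liver and 44.7% in BMDM.

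mt-Te was also the member that differed most between the tissues. It held 100, 203 and 54 counts in BMDM f/f and 118, 132 and 177 in BMDM MKO, but 4178, 4525 and 3939 in the livers labelled f/f and 3905, 4830 and 3459 in those labelled MKO. On the TMM scale this was 1.53 to 3.37 CPM in BMDM and 150 to 189 CPM in liver, a log2 difference of 6.09 ± 0.21 (adjusted p = 1.69e-09 in edgeR). The log2 differences of mt-Ti (isoleucine), mt-Ty (tyrosine), mt-Tq (glutamine), mt-Tc (cysteine) and mt-Tm (methionine) were 5.75, 5.63, 5.55, 5.47 and 5.13, above that of every messenger. Those of mt-Tl1 and mt-Tt (threonine) were 2.09 and 1.80, below every messenger. Relative to mitochondrial messenger RNA mt-Te was higher in liver by 3.20 ± 0.17, and mt-Tl1, between the ribosomal and messenger parts of the plus strand, fell by 0.81 ± 0.16. Rows of 1 kind and 1 chromosome thus differed between the tissues by anything from 1.80 to 6.09 on the log2 scale.

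Between the liver labels, mt-Ts1 had the lowest p of all members. It was at 46.1, 52.2 and 39.4 CPM in the livers labelled f/f and at 79.3, 72.2 and 76.3 CPM in those labelled MKO, a log2 difference of 0.72 ± 0.12 (adjusted p = 0.303 in edgeR, 0.000449 in DESeq2). mt-Ti and mt-Td (aspartate) were higher without overlap as well, by 0.67 ± 0.23 and 0.85 ± 0.45, where 9.60% of all genes were. mt-Td held only 8, 9 and 7 counts in the livers labelled f/f and 16, 15 and 16 in those labelled MKO. mt-Tl1 went the other way, at 34.1, 22.6 and 30.0 CPM in the livers labelled f/f and 19.2, 19.0 and 24.4 CPM in those labelled MKO, a difference of −0.47 ± 0.18 (adjusted p = 0.437 in edgeR) with overlapping groups. mt-Te was lower without overlap, where 7.74% of all genes were, at 141, 125 and 131 CPM against 109, 115 and 122 CPM, a difference of −0.20 ± 0.09 (adjusted p = 0.515 in edgeR). In all, 6 of the 16 tested transfer RNAs were higher in value and 10 lower, where 49.1% of all genes were higher, and the lower values of mt-Tm, mt-Tn, mt-Tw and mt-Ta lay within 0.05 of 0. The difference between transfer and messenger RNAs was not tested. Their share of the mitochondrial counts was 0.485%, 0.399% and 0.503% in the livers labelled f/f and 0.365%, 0.334% and 0.384% in those labelled MKO, without overlap (exact permutation test, p = 0.1).

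In BMDM several transfer RNA rows were listed at 0 where the other libraries had counts. mt-Ts1 held 665, 768 and 0 counts in f/f and 603, 626 and 885 in MKO, so replicate 3 of f/f alone was listed at 0. The same library was listed at 0 for mt-Tc, mt-Ty and mt-Tp. f/f replicate 1 was listed at 0 for mt-Ta and mt-Tn, MKO replicate 2 for mt-Tp and MKO replicate 3 for mt-Tq. These 8 zeros, each in a row whose median over the 6 BMDM libraries was 5 or more, fell in 7 rows, all of the minus strand, and none was in a liver. A row listed at 0 can be a failed estimate of the counting step, so the tissue differences of these rows are uncertain. This holds for those given above for mt-Ty, mt-Tq and mt-Tc as well. All of these rows but mt-Ts1 also rest on few BMDM counts, at most 52 in a library. Of the 10 transfer RNAs tested in BMDM 8 were higher in MKO in value, where 50.8% of all genes were, and none reached an unadjusted p under 0.05. Among the higher rows, mt-Ta, mt-Tn, mt-Tc, mt-Ty and mt-Ts1 each had an f/f library listed at 0. mt-Tq, which was lower, had an MKO library listed at 0. The count of higher rows is therefore uncertain too.

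**Figure D5:**
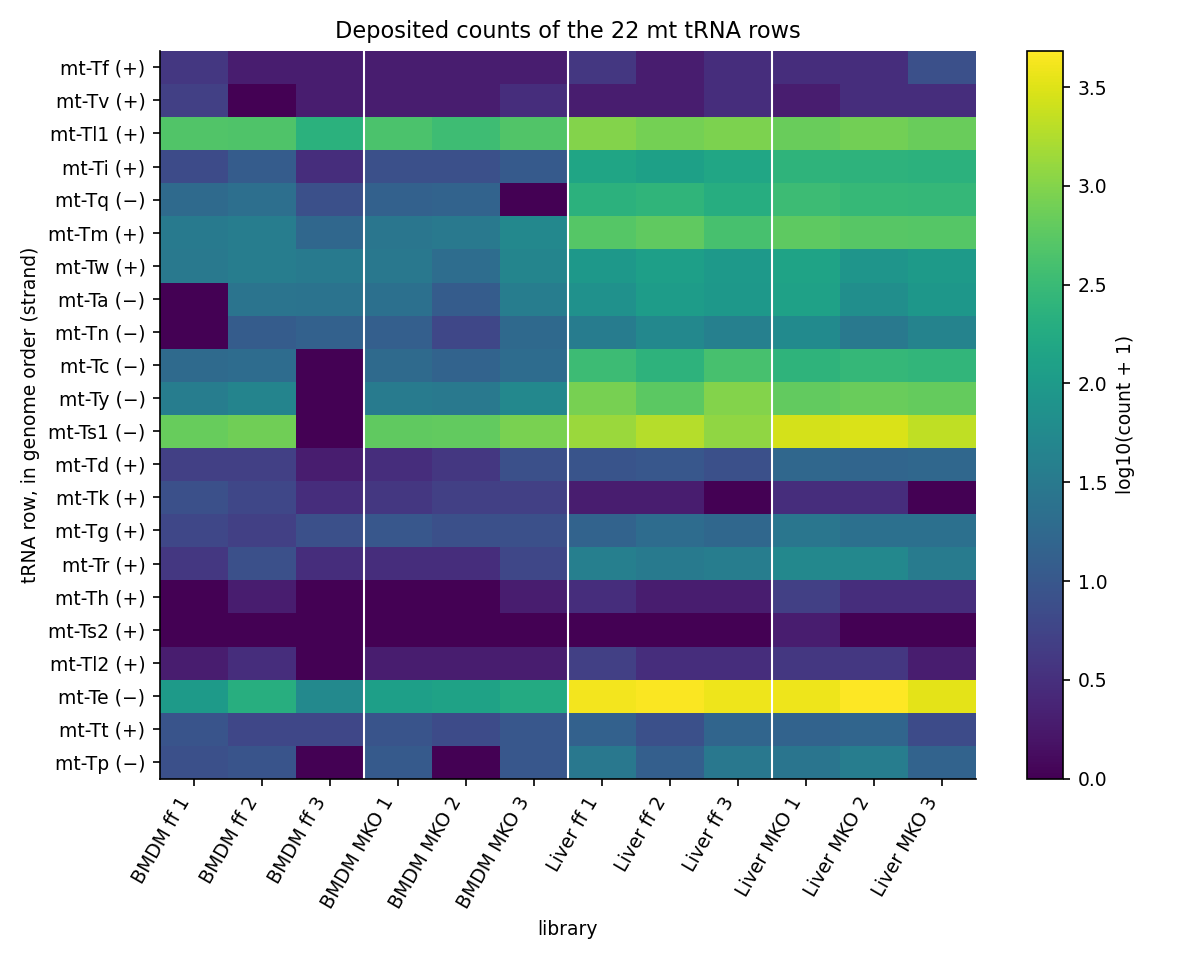
Heat map of the deposited counts of the 22 transfer RNA rows (y axis, in the order of the chromosome with the strand) in each of the 12 libraries (x axis), coloured by log10 of the count plus 1. mt-Te separates liver from BMDM the most, with 3459 to 4830 counts against 54 to 203, and the darkest cells among the minus-strand rows of BMDM are the 8 listed at 0.

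The nuclear genes that act with these transcripts were read from lists of whole complexes and pathways. The lists were chosen with earlier results of these data known, and all of their tested genes were counted. Of the nuclear subunits of complexes I, III, IV and V, 72 were tested in liver, 71 had a higher value in the livers labelled MKO, 61 without overlap, and 55 had an unadjusted p under 0.05, all higher, with none called after adjustment and a median log2 difference of 0.33. Over all genes tested 49.1% were higher, 9.60% higher without overlap and 5.27% higher at an unadjusted p under 0.05. By complex the medians were 0.29 for I (36 of 36 higher), 0.33 for III (9 of 9), 0.40 for IV (11 of 12) and 0.30 for V (15 of 15), beside 0.38 for the mitochondrial messengers. In complex II, which has no mitochondrially encoded subunit, 4 of 4 were higher, with a median of 0.25. In BMDM 27 of 71 nuclear subunits were higher in MKO and 44 lower, with a median of −0.05. Of these, 3 were higher and 17 lower without overlap, and 1 was higher and 6 lower at an unadjusted p under 0.05, beside 14.8%, 14.0%, 7.73% and 10.2% of all genes. Between the tissues 72 of 72 were called higher in liver, beside 40.5% of all genes. The median log2 difference of the 72 was 1.57, against 2.91 for the mitochondrial messengers.

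The nuclear genes of mitochondrial transcription, RNA processing and translation had values on both sides of 0 between the liver labels, from −0.74 to 0.69. Of 61 tested, 42 had a higher value in the livers labelled MKO, 5 were higher and 2 lower at an unadjusted p under 0.05, and the median log2 difference was 0.06, beside 49.1%, 5.27% and 5.18% of all genes. The mitochondrial RNA polymerase Polrmt was at −0.29, the packaging and transcription factor Tfam at 0.04, the initiation factor Tfb2m at 0.00 and the elongation factor Tefm at 0.04. Lrpprc and Slirp, which together keep the messengers stable, were at 0.03 and 0.27, the poly(A) polymerase Mtpap at 0.02 and the exoribonuclease Pnpt1 at 0.15. Of the genes that act on precursors, Trmt10c, a subunit of the RNase P that cuts the 5′ end of transfer RNAs, was at 0.32 (under an unadjusted p of 0.05, without overlap), Elac2, which cuts the 3′ end, at 0.00, Grsf1 at 0.01, Fastk, which is needed for mt-Nd6, at 0.17, and Tbrg4 at 0.11. The coactivator Ppargc1a was at −0.57. In BMDM 27 of 60 were higher, and 1 was higher and 8 lower at an unadjusted p under 0.05, none called. Over all genes these shares were 50.8%, 7.73% and 10.2%. The higher 1 was Tfb2m at 0.56, and Slirp at −0.41 was among the 8 lower. Between the tissues 43 of 61 were called higher and 8 lower in liver, beside 40.5% and 37.3% of all genes. Of the 14 genes named here 11 were called higher, among them Tfam at 1.65, Polrmt at 1.29, Tefm at 1.31 and Trmt10c at 1.13. Pnpt1 at −0.56, Mtpap at 0.15 and Slirp at 0.07 were not called.

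Other values were compared between the liver labels beside the mitochondrial messengers. All 7 tested neutrophil markers of 8 were lower in value in the livers labelled MKO (2 at an unadjusted p under 0.05), their sum being 92.8, 34.2 and 9.67 CPM in those labelled f/f and 10.3, 17.3 and 17.2 CPM in those labelled MKO, with overlap and with no marker at 0 in either group. All 4 nuclear-retained long RNAs examined were higher in value, by 0.42 to 0.72, 2 of them without overlap. These 2 were Malat1 (0.72) and Neat1 (0.45). Meg3 (0.61) and Kcnq1ot1 (0.42) overlapped and lay at no more than 3.29 CPM in any liver. Over all genes tested 49.1% were higher in value, 9.60% higher without overlap and 5.18% lower at an unadjusted p under 0.05. Macrophage markers summed to 265 to 560 CPM in the livers labelled f/f and 233 to 469 CPM in those labelled MKO, and hepatocyte markers to 93792 to 122172 CPM and 108852 to 113782 CPM, both overlapping. Their part in the difference of the mitochondrial transcripts was not tested.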

How the data were processed

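Counts per gene of 12 mouse RNA-seq libraries were deposited by the authors as 1 table of raw counts, with 0 columns left unused. Per the paper's methods and the submitters' processing notes, strand-specific TruSeq libraries were sequenced on a NovaSeq 6000, trimmed with Skewer, checked with FastQC 0.11.2 and aligned to mm10, with STAR and StringTie named as tools. How multiply mapped reads were treated, whether counting used strand and whether RNA was selected for poly(A) tails are not given in the sources used here. The extraction protocol in the labels speaks of thymic samples.

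Members and lists were chosen with earlier results of these data known. All mt- rows are named, together with 14 nuclear genes of mitochondrial gene expression that were named whatever they showed. Other list genes are given as counts. Sequences and positions came from the GRCm38 genome with GENCODE M21, in which all 37 rows matched by gene identifier. Copies were found with BLAST 2.17.0 (at least 100 bases at 90% identity).

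Tests used edgeR 4.0.16 (R 4.3.3): TMM, filterByExpr and robust quasi-likelihood fits, with Benjamini-Hochberg adjustment over all genes tested (15062 in liver, 15372 in BMDM, 17246 over all libraries). SE is the log2 difference divided by the root of the F statistic. The study compared groups with the MARS model of DEGseq, which uses no spread between replicates and was not run. Single values such as shares were compared by two-sided exact permutation tests over libraries. Alternatives were DESeq2 1.42.0, other scalings and filters, a replicate block, omission of each library, and the chromosome 1 copies added or removed. On simulated counts the liver fit recovered 43.5% of genes changed 2-fold and 89.0% of those changed 4-fold (15062 genes), and the BMDM fit 0% and 76.5% (15372 genes). No replicates of a group agreed within sampling noise. Depth ranged from 28962878 to 40954211 counts, so counting error was small for messengers and ribosomal RNAs and large for transfer RNAs with few counts. Reads carried no molecular identifiers.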

Additional observations from a re-analysis of the deposited data

How the results depend on the processing

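Of the values that answer a comparison, all but 9 kept their direction and their side of the threshold under the alternatives. DESeq2 called 5 members in liver where edgeR called 0. Relative to mitochondrial messenger RNA, 0 to 8 members were called in liver when 1 library was left out, the 8 arising without f/f replicate 2. The median of the messengers between the tissues was 2.73 with upper-quartile scaling, which moved the median of all genes to −0.14, and 3.05 in the f/f libraries alone (2.91 in the fit given), and mt-Ts1 was then no longer called (2.89, adjusted p = 0.101). Leaving out 1 library at a time, the ribosomal share differed by −1.52 to 0.0624 percentage points between the liver labels (reversed without f/f replicate 3) and by −0.307 to 0.0481 in BMDM. The transfer RNA share differed by −0.00721 to 0.0631 in BMDM (both BMDM shares reversed without f/f replicate 3). The mt-Nd6 share between the tissues differed by 0.0612 to 0.0996, with an exact permutation p of 0.026 without MKO liver replicate 1 or 3. In liver mt-Rnr1 ranged from −0.46 to 0.17, mt-Rnr2 from −0.23 to 0.44 (−0.01, −0.23 and −0.18 without f/f replicate 1, f/f replicate 2 or MKO replicate 3), and the messenger median from 0.31 to 0.46. In BMDM the messenger median ranged from 0.03 to 0.20. Adding the chromosome 1 copies gave a liver median of 0.35. The copy settings and the omission of libraries from the ribosomal, transfer RNA and mt-Nd6 shares were chosen after the data were seen. Same-numbered libraries of the 2 genotypes correlated from −0.0755 to 0.254 in their deviations, and differently numbered ones from −0.356 to 0.373. A pairing by number was thus not seen, but with 3 libraries a group these values cannot exclude one. With a replicate block, members called stayed at 0 in liver, 0 in BMDM and 31 between the tissues, with medians of 0.38, 0.11 and 2.91, and relative to messenger RNA 0, 0 and 19. The causes of these changes were not tested.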
